A study of Mus musculus with 6 samples.

Results

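Heterochromatin proteins and remodellers were followed as 10 genes listed by name. They are the HP1 genes Cbx1, Cbx3 and Cbx5, the H3K9 methyltransferase genes Suv39h1, Suv39h2 and Setdb1, the co-repressor gene Trim28, and the remodeller and histone chaperone genes Hells, Atrx and Daxx. All 10 were found by Ensembl identifier among the 54146 gene identifiers counted, and all 10 passed the low-count filter that left 13120 genes for testing. The libraries came from KO clone 1 and KO clone 2, which are single clones of Mki67-/- NIH/3T3 cells, and from wild-type (WT) NIH/3T3 cells, with 2 libraries per group. NIH/3T3 is an immortalised fibroblast line from Swiss albino mouse embryos, and all groups were grown in the same medium with serum. Mki67 encodes Ki-67, a nuclear protein of proliferating cells that coats mitotic chromosomes and is known to help organise heterochromatin in interphase. Neither the method of knockout, the edited part of the gene nor the cloning history of the WT cells is given in the sources used here. The knockout and the history of a clone thus cannot be told apart within 1 clone. Both clones are set against the same WT cells, whose history cannot be told apart from the knockout in the mean either. The extraction protocol in the labels names 4T1, an epithelial mammary tumour line, whereas titles, sources and tissue fields name NIH/3T3 fibroblasts.

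Constitutive heterochromatin is marked by methylation of histone H3 at lysine 9. SUV39H1, SUV39H2 and SETDB1 write this mark, and the HP1 proteins read it through their chromodomains. TRIM28 brings SETDB1 to sites chosen by zinc finger proteins, HELLS slides nucleosomes and is needed for DNA methylation of repeats, and ATRX with the chaperone DAXX deposits the histone variant H3.3 at telomeres and pericentric repeats.

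The promoters of the 5 members that were called different between knockout and WT, 6 in all since Cbx5 has 2, are printed to set the members that moved side by side. Each spans the start site and the bases just before it, 5′ to 3′ on the gene's strand, from RefSeq on GRCm38.p6. All 10 members had at least 1 promoter in that table, 15 promoters in all. Capitals mark every match, on either strand, to an E2F-like motif (TTTCCCGC, TTTCGCGC, TTTGCCGC or TTTGGCGC), a CCAAT box (CCAAT) or a CHR-like motif (TTTGAA). No match overlapped another in these 6 promoters.
Hells: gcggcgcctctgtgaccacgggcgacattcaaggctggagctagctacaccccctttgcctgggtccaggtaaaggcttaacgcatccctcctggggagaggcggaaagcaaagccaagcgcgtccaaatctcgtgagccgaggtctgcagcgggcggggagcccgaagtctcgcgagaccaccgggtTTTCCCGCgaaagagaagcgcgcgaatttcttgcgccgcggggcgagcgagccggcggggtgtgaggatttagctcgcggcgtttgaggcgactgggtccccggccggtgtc
Atrx: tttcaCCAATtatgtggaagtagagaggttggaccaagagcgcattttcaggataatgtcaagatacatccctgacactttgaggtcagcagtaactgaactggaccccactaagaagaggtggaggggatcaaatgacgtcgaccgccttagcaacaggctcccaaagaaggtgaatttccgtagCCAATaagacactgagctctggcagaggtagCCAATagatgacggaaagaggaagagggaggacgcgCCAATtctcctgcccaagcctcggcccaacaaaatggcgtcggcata
Cbx5: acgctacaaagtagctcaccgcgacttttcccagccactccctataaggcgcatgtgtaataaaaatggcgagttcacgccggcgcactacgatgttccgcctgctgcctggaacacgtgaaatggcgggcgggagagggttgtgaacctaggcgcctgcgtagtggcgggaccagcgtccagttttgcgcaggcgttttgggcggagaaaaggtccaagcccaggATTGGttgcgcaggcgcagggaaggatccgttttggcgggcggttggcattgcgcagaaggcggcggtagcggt
Cbx5: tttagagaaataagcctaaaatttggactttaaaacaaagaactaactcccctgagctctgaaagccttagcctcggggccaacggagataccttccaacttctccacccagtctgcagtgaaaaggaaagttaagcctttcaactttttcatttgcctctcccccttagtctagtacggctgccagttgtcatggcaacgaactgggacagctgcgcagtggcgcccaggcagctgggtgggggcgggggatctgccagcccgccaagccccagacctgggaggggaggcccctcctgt
Suv39h2: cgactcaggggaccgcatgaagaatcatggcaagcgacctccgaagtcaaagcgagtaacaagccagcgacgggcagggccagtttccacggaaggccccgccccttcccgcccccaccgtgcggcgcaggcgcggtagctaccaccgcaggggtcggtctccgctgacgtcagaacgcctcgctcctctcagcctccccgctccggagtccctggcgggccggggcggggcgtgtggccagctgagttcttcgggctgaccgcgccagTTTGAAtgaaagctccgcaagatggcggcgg
Trim28: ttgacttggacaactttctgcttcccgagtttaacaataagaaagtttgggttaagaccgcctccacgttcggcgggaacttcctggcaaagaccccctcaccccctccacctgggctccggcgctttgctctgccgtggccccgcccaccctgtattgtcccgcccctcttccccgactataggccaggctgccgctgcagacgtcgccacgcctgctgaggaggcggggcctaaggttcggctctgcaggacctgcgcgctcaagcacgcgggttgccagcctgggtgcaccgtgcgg
The Hells promoter, at chr19:38930740-38931039 on the plus strand, held 1 E2F-like match, which began 62 bases before the start site. The Atrx promoter, at chrX:105929323-105929622 on the minus strand, held 4 CCAAT boxes. The first Cbx5 promoter, at chr15:103239803-103240102 on the minus strand, held 1 CCAAT box, written ATTGG as read on this strand. The other Cbx5 promoter, at chr15:103215303-103215602, held no match. The Suv39h2 promoter, at chr2:3474937-3475236 on the minus strand, held 1 CHR-like match past the start site. The Trim28 promoter, at chr7:13023902-13024201 on the plus strand, held no match. Thus no motif was common to the 4 members called higher. Over all 10 members, E2F-like letters were found in 3 (Cbx3, Suv39h1 and Hells), a CCAAT box in 5 (Cbx5, Suv39h1, Setdb1, Atrx and Daxx) and the CHR-like letters in Suv39h2 only. Counted per promoter, with those of Daxx overlapping each other, these were 3, 5 and 1 of the members' 15 promoters. Among all 32851 promoters of the table, 2.26% held E2F-like letters, 37.4% a CCAAT box and 17.9% the CHR-like letters. CG dinucleotides numbered 8 to 37 in the members' promoters, against a median of 7 over all promoters. A match describes letters in this window and is not a measured binding site.

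Depth and identity of the libraries were checked first. Gene counts summed to between 15087148 and 19678782 in the 4 knockout libraries, against 3873249 and 11377172 in the WT libraries. Levels are CPM, that is counts scaled to TMM-adjusted library totals. RPKM, used where genes are compared with each other, divides CPM by the exonic length in kilobases. Mki67 had 4.24 and 4.58 CPM in KO clone 1 and 4.32 and 7.69 CPM in KO clone 2, against 49.1 and 55.1 CPM in WT. Its log2 fold change for the mean of both clones over WT was −3.35 ± 0.18 (SE; edgeR quasi-likelihood adjusted p = 1.12e-08). All 6 fibroblast genes were present in every library, from 76.4 CPM for Pdgfrb to 5393 CPM for Vim. They moved unequally with the knockout. In the mean of both clones over WT, Col1a1 was called higher (0.75) and Col3a1 (−1.90), Thy1 (−1.03) and Vim (−0.60) lower, and Col1a2 (0.06) and Pdgfrb (−0.17) were not called. The part of this shift in the members' results was not tested. The epithelial genes Epcam, Krt8, Krt18, Cdh1 and Cldn4 were at or below 0.543 CPM, Epcam with 0 counts in all 6 libraries. Of the immune genes, Ptprc reached at most 0.360 CPM, Adgre1 had 0 counts, and Cd68 ranged from 11.7 to 19.3 CPM. Whether the 2 libraries of a group stem from different cultures is not in the labels, and the p-values reflect the spread between libraries, which may be technical.

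In knockout cells, transcripts of Hells, Atrx, Suv39h2 and Cbx5 stood at 1.94 to 2.29 times their WT level and those of Trim28 at 0.628 times, while Cbx1, Cbx3, Suv39h1, Setdb1 and Daxx were not called. The threshold for a call was an adjusted p of 0.05, with the Benjamini-Hochberg adjustment made over all 13120 genes tested. In the mean of both clones over WT, 5 of the 10 members were called, against 34.8% of all genes tested. Higher were 4 of 10 members, against 16.6% of all genes, and lower was 1 of 10, against 18.2%. The members' median log2 fold change was 0.15, and that of all tested genes was 0.0049. These are bulk libraries, in which fewer cells with a transcript and less of it per cell cannot be told apart. Many genes differed between these knockout and WT cells, and the members' counts are to be read against those shares.

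**Figure D1:**
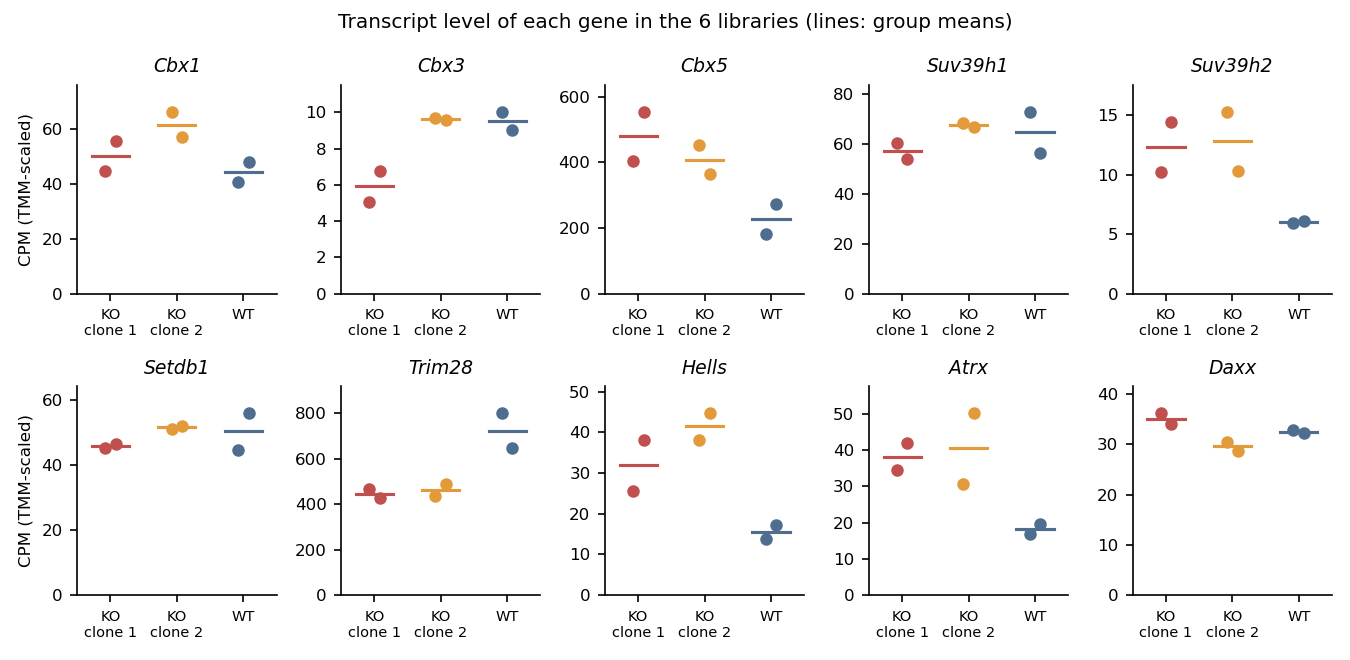
Transcript level of each of the 10 genes in every library, as CPM on a linear axis from 0, with KO clone 1, KO clone 2 and WT from left to right; points are libraries and lines are means of 2 libraries. The knockout points lie above the WT points for Cbx5, Suv39h2, Hells and Atrx and below them for Trim28, whereas they overlap with WT for the other 5 genes.

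Of the HP1 genes, only Cbx5 was called in the mean of both clones. Cbx5 encodes HP1 alpha, the HP1 protein most concentrated at pericentric heterochromatin, and lies at chr15:103191544-103239816 (minus strand; positions of all genes are on GRCm38). Cbx5 had 406 and 555 CPM in KO clone 1 and 453 and 364 CPM in KO clone 2, against 181 and 273 CPM in WT. Every knockout library was higher than either WT library. The log2 fold change was 0.96 ± 0.18 in the mean (1.94-fold, edgeR adjusted p = 9.93e-04), 1.07 ± 0.20 in KO clone 1 (adjusted p = 0.00110) and 0.84 ± 0.20 in KO clone 2 (adjusted p = 0.00638). The call in KO clone 2 was lost without its replicate 1, where Cbx5 stood at 0.67 (adjusted p = 0.0747).

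Cbx1 encodes HP1 beta and lies at chr11:96789127-96808640. Cbx1 had 44.5 and 55.3 CPM in KO clone 1 and 66.1 and 56.8 CPM in KO clone 2, against 40.4 and 47.9 CPM in WT. KO clone 2 lay above both WT libraries, and KO clone 1 overlapped with them. Its log2 fold change was 0.31 ± 0.14 in the mean (95% interval 0.01 to 0.61, adjusted p = 0.0992). In KO clone 2 it was called at 0.46 ± 0.16 (adjusted p = 0.0420), but this call was lost without either KO clone 2 library (0.34 and 0.56, adjusted p = 0.318 and 0.0738) and without WT replicate 1 (0.36, adjusted p = 0.106). Without WT replicate 2, Cbx1 was called in the mean (0.46, adjusted p = 0.0347).

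Cbx3 encodes HP1 gamma, which is also found over transcribed genes, and lies at chr6:51470360-51483704. It was counted from few reads, 649 over all 6 libraries. Cbx3 had 5.05 and 6.78 CPM in KO clone 1 and 9.68 and 9.57 CPM in KO clone 2, against 10.0 and 9.01 CPM in WT. The KO clone 1 libraries were the lowest, and KO clone 2 lay within the WT range. The log2 fold change was −0.67 ± 0.22 in KO clone 1 (adjusted p = 0.0308), 0.04 in KO clone 2 (95% interval −0.42 to 0.49, adjusted p = 0.916) and −0.32 ± 0.19 in the mean (adjusted p = 0.219). The KO clone 1 call was lost without KO clone 1 replicate 1 (−0.46, adjusted p = 0.183) and with libraries thinned to equal depth (−0.49, adjusted p = 0.249). The annotation holds 8 processed pseudogenes of Cbx3, which had 2 counts in all, and reads with several matches stay out of these counts, so the level of Cbx3 is uncertain.

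Set against each other per length, the HP1 genes differed widely in level. Cbx5 took 80.0% and 81.4% of the summed HP1 RPKM in KO clone 1 and 74.6% and 73.1% in KO clone 2, against 64.3% and 70.4% in WT. The share of Cbx1 was 18.5% and 17.1% in KO clone 1 and 23.0% and 24.03% in KO clone 2, against 30.4% and 26.1% in WT. Summed over the HP1 genes, the level was 56.3 and 75.7 RPKM in KO clone 1 and 67.3 and 55.3 RPKM in KO clone 2, against 31.2 and 43.0 RPKM in WT. The 4 knockout libraries lay above both WT libraries in this sum and in the share of Cbx5, and below them in the share of Cbx1. Shares and sum carry the uncertainty in the level of Cbx3, and the sum largely restates Cbx5, its largest part.

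**Figure D2:**
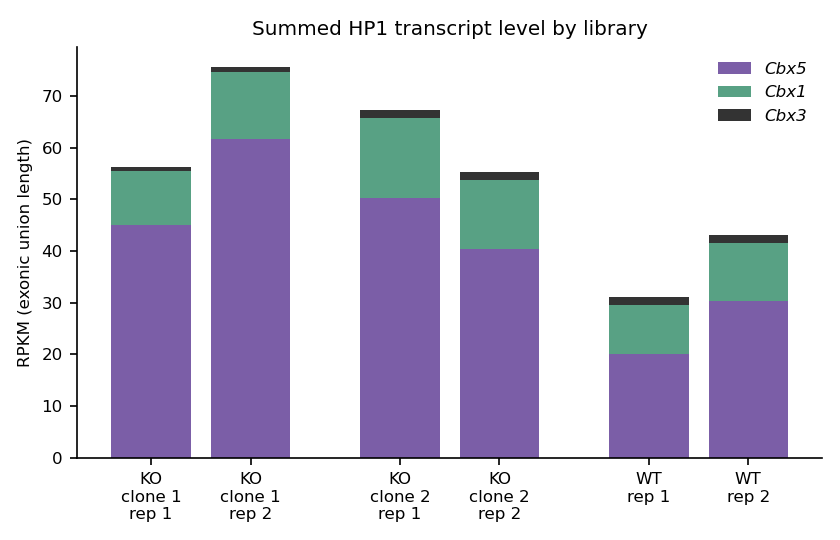
Summed level of the HP1 genes Cbx5, Cbx1 and Cbx3 in each library, as stacked bars of RPKM on exonic length, from KO clone 1 and KO clone 2 on the left to WT on the right. The bars reach 55.3 to 75.7 RPKM in the knockout libraries, against 31.2 and 43.0 RPKM in WT, and Cbx5 forms the largest part of each bar. The part of Cbx3 is uncertain, as reads with several matches are not counted.

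Of the paralogous methyltransferases SUV39H1 and SUV39H2, which both make the trimethyl mark of pericentric heterochromatin, only the gene of the second was called. Suv39h2 lies at chr2:3455815-3475031 (minus strand). Suv39h2 had 10.2 and 14.4 CPM in KO clone 1 and 15.3 and 10.3 CPM in KO clone 2, against 5.97 and 6.13 CPM in WT. All knockout libraries were above WT, and the WT values rest on 22 and 68 counts. The log2 fold change was 1.04 ± 0.24 in the mean (2.06-fold, edgeR adjusted p = 0.00446), 1.01 ± 0.26 in KO clone 1 (adjusted p = 0.0101) and 1.08 ± 0.27 in KO clone 2 (adjusted p = 0.00850). The call was lost in KO clone 1 without its replicate 2 (0.74, adjusted p = 0.0822) and with libraries thinned to equal depth (0.80, adjusted p = 0.0692). In KO clone 2 it was lost without replicate 1 (0.75, adjusted p = 0.105). With the trend along the chromosome removed, described further on, the call was lost in the mean (0.47, adjusted p = 0.182) and in each clone (0.37 and 0.57).

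Suv39h1 lies at chrX:8061171-8074760 (minus strand). Suv39h1 had 60.3 and 53.8 CPM in KO clone 1 and 68.3 and 66.7 CPM in KO clone 2, against 72.7 and 56.2 CPM in WT. The groups overlapped. The log2 fold change was −0.04 ± 0.13 in the mean (95% interval −0.31 to 0.24, adjusted p = 0.860). Per length, Suv39h1 stood above Suv39h2 in all 6 libraries. The ratio of Suv39h2 to Suv39h1 RPKM was 0.202 and 0.321 in KO clone 1 and 0.267 and 0.184 in KO clone 2, against 0.0981 and 0.130 in WT, so that each knockout library was above WT. Both genes overlap transcripts on the other strand, and counts that ignore strand came to 72.5% of the strand-specific counts for Suv39h1 and to 86.2% for Suv39h2.

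SETDB1 and its partner TRIM28 (KAP1) silence endogenous retroviruses and imprinted regions. Setdb1 lies at chr3:95323525-95357202 (minus strand). Setdb1 had 45.2 and 46.5 CPM in KO clone 1 and 51.2 and 52.2 CPM in KO clone 2, against 44.8 and 55.9 CPM in WT. WT held both the lowest and the highest library. In the edgeR fit, the log2 fold change was −0.07 ± 0.12 in the mean (95% interval −0.34 to 0.20, adjusted p = 0.709).

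Trim28 lies at chr7:12999114-13031035. Trim28 had 464 and 427 CPM in KO clone 1 and 434 and 487 CPM in KO clone 2, against 799 and 647 CPM in WT. Every knockout library was below either WT library. By edgeR, its log2 fold change was −0.67 ± 0.12 in the mean (0.628-fold, edgeR adjusted p = 8.59e-04), −0.70 ± 0.14 in KO clone 1 (adjusted p = 0.00246) and −0.65 ± 0.14 in KO clone 2 (adjusted p = 0.00472). In KO clone 2 the call was lost without replicate 1 (−0.58, adjusted p = 0.0905). With the trend along the chromosome removed, described further on, it was lost in the mean (−0.27, adjusted p = 0.130) and in each clone. The ratio of Trim28 to Setdb1 RPKM was 16.9 and 15.2 in KO clone 1 and 14.0 and 15.4 in KO clone 2, against 29.4 and 19.1 in WT.

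Hells, the gene of the SNF2-family remodeller also called LSH, had the largest fold change of the 10 members in the mean of both clones and in KO clone 2. In KO clone 1, Cbx5, Atrx and Suv39h2 stood slightly above it. With the trend of position removed, described further on, Cbx5 led in the mean (0.92) and in KO clone 1 (0.895). With GC content, length and position all removed, Cbx3 had the largest absolute change in the mean (−0.63) and in KO clone 1 (−0.87). In KO clone 2, Hells led under both corrections (0.94 and 0.61). Hells lies at chr19:38930915-38971051. Hells had 25.6 and 38.1 CPM in KO clone 1 and 38.2 and 44.7 CPM in KO clone 2, against 13.8 and 17.1 CPM in WT. All knockout libraries were above WT, and KO clone 1 replicate 1 was the lowest of them. This gave a log2 fold change of 1.19 ± 0.19 in the mean (2.29-fold, edgeR adjusted p = 3.15e-04), 1.00 ± 0.21 in KO clone 1 (adjusted p = 0.00250) and 1.38 ± 0.21 in KO clone 2 (adjusted p = 2.99e-04). The call held in each of the 6 fits that left out 1 library, in the mean and in each clone.

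Atrx encodes the SNF2-family remodeller that binds the H3K9 mark beside unmodified lysine 4, and lies at chrX:105797615-105929403 (minus strand). Atrx had 34.5 and 41.9 CPM in KO clone 1 and 30.7 and 50.2 CPM in KO clone 2, against 16.8 and 19.7 CPM in WT. The knockout libraries were all above WT, with KO clone 2 giving both their lowest and their highest value. The fitted log2 fold change was 1.08 ± 0.20 in the mean (2.11-fold, edgeR adjusted p = 0.00108), 1.04 ± 0.22 in KO clone 1 (adjusted p = 0.00305) and 1.12 ± 0.22 in KO clone 2 (adjusted p = 0.00235). These calls too held in each of the 6 fits that left out 1 library.

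Daxx, the gene of ATRX's chaperone partner, lies at chr17:33909414-33915590. Daxx had 36.2 and 34.0 CPM in KO clone 1 and 30.5 and 28.7 CPM in KO clone 2, against 32.8 and 32.3 CPM in WT. KO clone 1 lay above and KO clone 2 below WT, by little. In the edgeR fit, the log2 fold change was −0.01 ± 0.13 in the mean (95% interval −0.28 to 0.26, adjusted p = 0.957). The ratio of Atrx to Daxx RPKM was 0.138 and 0.179 in KO clone 1 and 0.146 and 0.253 in KO clone 2, against 0.0742 and 0.0886 in WT. Each knockout library was above WT in this ratio. As with the other ratios, the trends described further on were not removed from it.

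**Figure D3:**
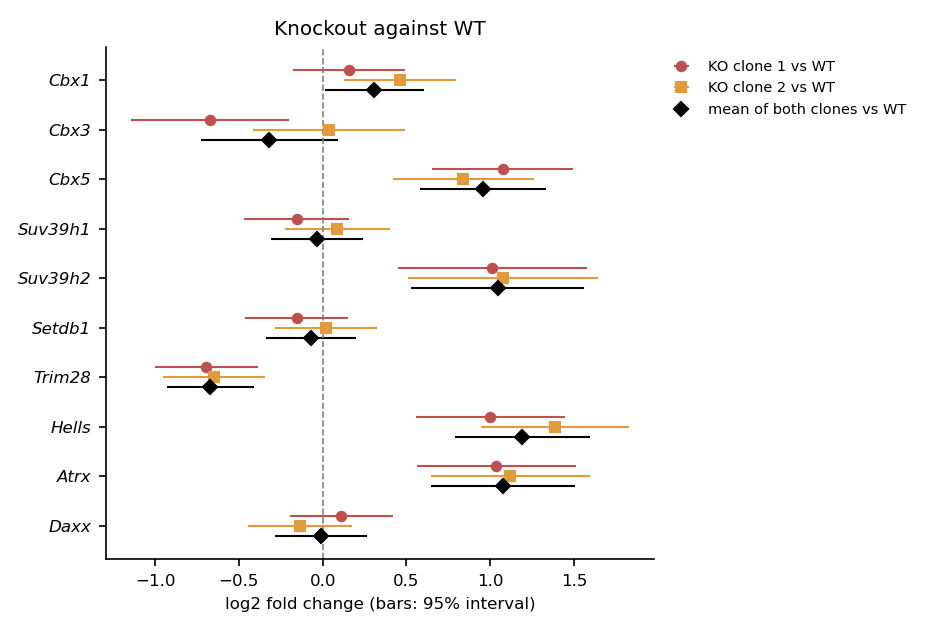
Log2 fold change of each gene for KO clone 1, KO clone 2 and the mean of both clones over WT, with bars for the 95% interval of the edgeR fit on all 6 libraries. The intervals of the mean lie right of 0 for Cbx5, Suv39h2, Hells and Atrx and left of 0 for Trim28; that of Cbx1 runs from 0.01 to 0.61, and those of the other 4 genes span 0.

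In order of level per length, Trim28 and Cbx5 came first in every group. Trim28 averaged 107 ± 6.24 RPKM in KO clone 1 and 111 ± 9.08 RPKM in KO clone 2, against 174 ± 25.9 RPKM in WT (SD, n = 2). Cbx5 averaged 53.3 ± 11.7 RPKM in KO clone 1 and 45.3 ± 6.96 RPKM in KO clone 2, against 25.2 ± 7.24 RPKM in WT. Cbx1, Suv39h1 and Daxx followed at 9.39 to 14.4 RPKM in the knockout clones and 10.3 to 12.2 RPKM in WT. The means of these 3 genes differed by less than the largest of their SDs in WT and in KO clone 1. Setdb1 came next, at 6.69 and 7.55 RPKM in the clones and 7.35 RPKM in WT, and then Hells, at 4.42 and 5.75 RPKM against 2.15 RPKM. The lowest were Suv39h2, Atrx and Cbx3. Their order differed between groups, with Cbx3 at the bottom in both clones (0.987 and 1.61 RPKM) and Atrx at the bottom in WT (0.840 RPKM). RPKM here divides by the union of all annotated exons, which among the members is longest for Atrx, at 21757 bases.

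Each clone was also set against WT on its own, and both comparisons share the same WT libraries. In KO clone 1, 6 members were called, 4 higher and 2 lower, against 31.7% of all genes tested (15.2% higher and 16.5% lower). In KO clone 2, 6 were called, 5 higher and 1 lower, against 27.4% of all genes tested (12.9% higher and 14.5% lower). Hells, Atrx, Suv39h2 and Cbx5 were higher and Trim28 was lower in each, and Cbx3 in KO clone 1 and Cbx1 in KO clone 2 made the sixth. Called with the same sign in each clone were 20.8% of all genes tested. Of the 10 members, 5 had knockout and WT libraries that did not overlap in CPM, against 49.8% of all genes tested. For 4 members all knockout libraries lay above WT, against 25.1% of genes, and for 1 they lay below WT, against 24.7%.

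The clones were compared with each other directly, with the WT libraries entering only the estimate of spread. No member was called by edgeR, by DESeq2 or by limma-voom, against 3.54% of all genes tested by edgeR (1.18% higher and 2.36% lower in KO clone 2). At an unadjusted p below 0.05 there was 1, Cbx3, whose log2 difference was 0.71 ± 0.20 in KO clone 2 over KO clone 1. Its adjusted p was 0.0685 (edgeR). That difference passed the threshold in 7 of 21 alternatives, among them the fit with the replicate number as a block (0.71, adjusted p = 0.0357), that without a low-count filter (0.68, adjusted p = 0.0290) and those without WT replicate 1 or 2 (0.71, adjusted p = 0.00468 and 0.00453). For Hells the difference was 0.38, with a 95% interval of −0.01 to 0.78 (adjusted p = 0.333). For Atrx the interval was −0.34 to 0.51, for Suv39h2 −0.40 to 0.53, for Cbx5 −0.65 to 0.18 and for Trim28 −0.26 to 0.35. Differences between clones within these intervals are not excluded by 2 libraries each.

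Fold changes in these libraries moved with GC content and transcript length, and with place on the chromosome, and members were touched unequally. A smooth trend on exonic GC content and length, fitted over 13114 genes in each library, came to a knockout-minus-WT difference of 0.53 at Atrx, 0.50 at Hells, 0.44 at Cbx3, 0.37 at both Cbx5 and Suv39h2 and −0.18 at Trim28 on the log2 scale. The same difference was −0.17 at Daxx, −0.06 at Suv39h1, 0.02 at Setdb1 and 0.11 at Cbx1. The RPKM ratios and shares given above were not corrected for this trend or for position, and hold them in part. GC content is 39.9% for Hells, 40.3% for Atrx, 40.9% for Cbx3, 42.3% for Suv39h2 and 43.2% for Cbx5, against 55.3% for Trim28. With this trend removed, Hells stood at 0.74 (adjusted p = 6.77e-04), Atrx at 0.61 (adjusted p = 0.0127) and Cbx5 at 0.61 (adjusted p = 0.00102). Cbx3 was then called lower in the mean, at −0.69 (adjusted p = 0.00697). By clone, Cbx3 was called in KO clone 1 (−1.02, edgeR adjusted p = 0.00128) and not in KO clone 2 (−0.37, adjusted p = 0.17). In the mean, Suv39h2 stood at 0.73 (adjusted p = 0.0156) and Trim28 at −0.49 (adjusted p = 0.00267). All 5 called members thus kept their calls at a smaller size, and for Cbx3 the correction made the difference larger.

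A local median log2 fold change was taken over 51 tested genes in order along the chromosome. The window held the member itself and was moved inward at chromosome ends. For Suv39h2 the local median was 0.65 in KO clone 1 and 0.51 in KO clone 2. Averaged over the clones, 1.46% of all tested genes had a local median as far from 0. Within 10 Mb of Suv39h2, 29 of 31 genes that averaged a log2 CPM of 1 or more were above 0. Around Trim28 the local median was −0.43 in KO clone 1 and −0.38 in KO clone 2, as far from 0 as for 8.24% of tested genes, and 12 of 119 such neighbours were above 0. Over all 1001 tested genes of chromosome 7, which carries Trim28 and also Mki67, the median was −0.27 in KO clone 1 and −0.26 in KO clone 2. For Hells the local median was 0.40 and 0.44 (7.31%), with 72 of 131 neighbours above 0. For Atrx it was 0.28 and 0.34 (16.1%), with 37 of 45 neighbours above 0. Most genes near Suv39h2, Trim28 and Atrx thus lay on the same side of 0 as the member itself. For the other 6 members the local median averaged over the clones was as far from 0 as for 63.6% to 95.2% of tested genes. This average hides opposite signs in KO clone 1 and KO clone 2 for Cbx5 (0.18 and −0.10), Cbx3 (−0.14 and 0.02) and Daxx (0.19 and −0.04).

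**Figure D4:**
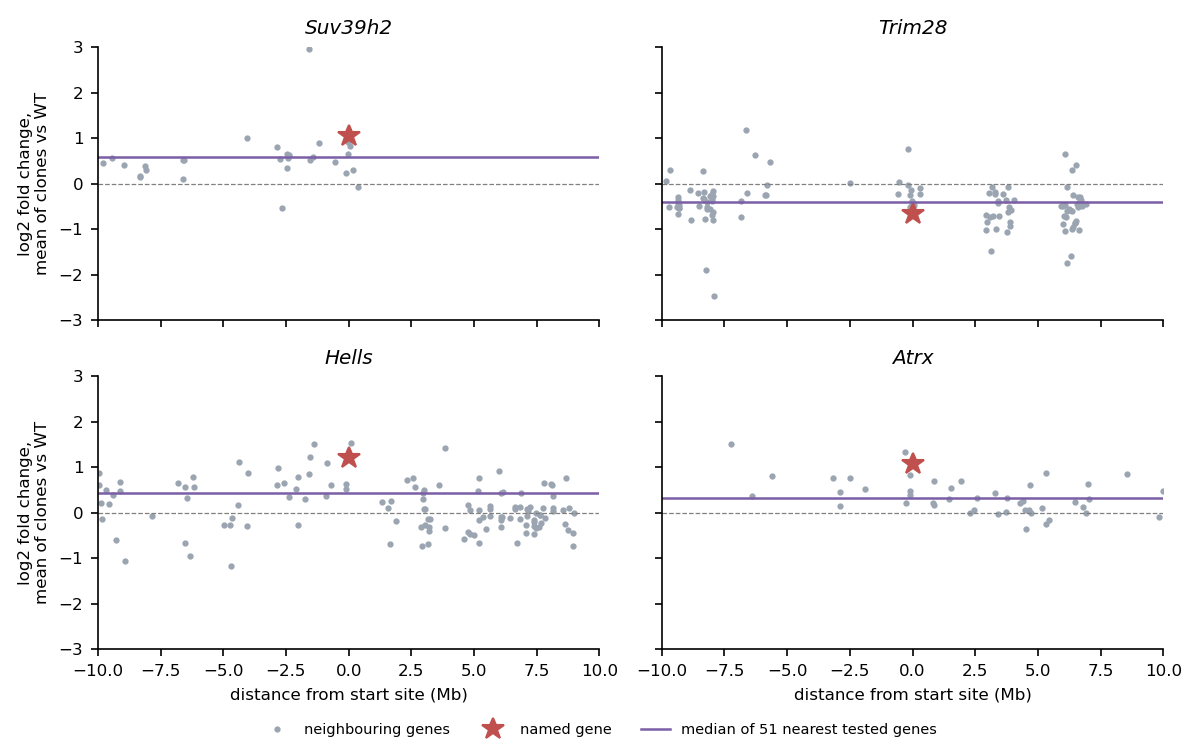
Log2 fold change of the mean of both clones over WT for genes within 10 Mb of Suv39h2, Trim28, Hells and Atrx, against distance from the start site of the named gene in megabases, positive in its direction of transcription. Grey points are neighbours that averaged a log2 CPM of 1 or more, and the star is the named gene. The line is the median of a window of 51 tested genes along the chromosome that holds the named gene. Outside the axis lie 2 neighbours of Trim28 and 1 of Hells. Most neighbours of Suv39h2 and Atrx lie above 0 and most neighbours of Trim28 below it.

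With the local median removed, Suv39h2 and Trim28 missed the threshold, at the values given above. Hells (0.77, adjusted p = 0.00823), Atrx (0.76, adjusted p = 0.0126) and Cbx5 (0.92, adjusted p = 0.00175) were still called. With GC content, length and position all removed, a correction chosen after the data were seen, 4 members were called, against 3505 of 13120 genes. The 4 members were Atrx at 0.55 (edgeR adjusted p = 0.0275), Hells at 0.46 (adjusted p = 0.0215), Cbx5 at 0.44 (adjusted p = 0.0107) and Cbx3 at −0.63 (adjusted p = 0.0152). Suv39h2 was then at 0.30 (adjusted p = 0.354) and Trim28 at −0.22 (adjusted p = 0.161). In KO clone 1 alone, Hells lost its call under the position correction (0.60, adjusted p = 0.0508) and under all corrections (0.30, adjusted p = 0.158), and Atrx lost it in KO clone 2 under all corrections (0.51, adjusted p = 0.0672). Under all corrections, Cbx3 was called in KO clone 1 (−0.87, edgeR adjusted p = 0.00497) and not in KO clone 2 (−0.40, adjusted p = 0.163). Whether these trends are technical or part of the cells' state was not tested.

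**Figure D5:**
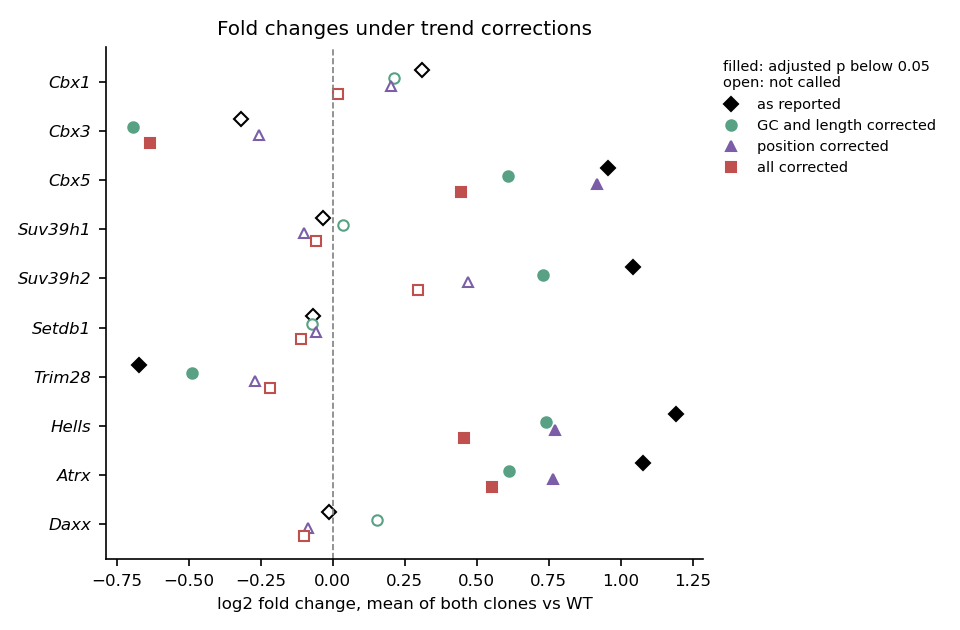
Log2 fold change of the mean of both clones over WT for each gene as reported and with GC content and length, chromosome position, or all of these removed; filled symbols have an adjusted p below 0.05. Hells, Atrx and Cbx5 stay filled under every correction, Suv39h2 and Trim28 turn open once position is removed, and Cbx3 turns filled once GC content and length are removed. Taken by clone, Cbx3 was then called in KO clone 1 and not in KO clone 2.

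Reads from the strand opposite to Atrx gave a signal in KO clone 1. Over the exons of Atrx they numbered 166 and 112 in KO clone 1 and 1 and 3 in KO clone 2, against 0 and 1 in WT. As a share of the counts on both strands this was 19.6% (95% Wilson interval 17.0% to 22.4%) and 14.4% (12.1% to 17.0%) in KO clone 1, and 0.20% and 0.388% in KO clone 2. In WT replicate 2 the share was 0.455%, and the count of 0 in WT replicate 1 allows a share of up to 4.84% (3 of 62 counts). Intervals and such limits cover counting error only. The strand-specific counts of Atrx used above do not contain these reads. The annotation places the snRNA genes Gm26020 and Gm23656 on the opposite strand, overlapping the span of Atrx.

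Other genes of heterochromatin were taken from a list of 29 writers, readers, erasers and assembly factors, of which 28 were tested. In the mean of both clones 7 were called higher and 4 lower, against 16.6% and 18.2% of all genes tested, and the median log2 fold change was 0.11. Smarca5, the ISWI remodeller gene, had 11.6 and 16.6 CPM in KO clone 1 and 12.8 and 19.9 CPM in KO clone 2, against 4.34 and 7.39 CPM in WT (log2 fold change 1.25 ± 0.26, adjusted p = 0.00260). Smchd1, a structural maintenance of chromosomes gene needed for X inactivation, was at 0.82 ± 0.18 (adjusted p = 0.00340). Mphosph8 and Fam208a, genes of the HUSH silencing complex, were at 1.02 ± 0.36 (adjusted p = 0.0396) and 0.82 ± 0.19 (adjusted p = 0.00499). Pphln1, which encodes the remaining core HUSH subunit and was picked after its values were seen, was called at 0.53 ± 0.15 (adjusted p = 0.0153). The remaining 2 called rises, Kmt5b among them, were smaller than that of Smchd1. By clone, Mphosph8 was not called in KO clone 1 (0.74, edgeR adjusted p = 0.168). Pphln1 was not called in KO clone 2 (0.43, adjusted p = 0.0766), whereas Fam208a was called in both clones. The WT values of Mphosph8 rest on 7 and 24 counts, and the HUSH calls were not stable. That of Mphosph8 was lost in 11 of 21 alternatives, including those without KO clone 1 replicate 2 (0.92, adjusted p = 0.0827), KO clone 2 replicate 2 (0.73, adjusted p = 0.0946) or WT replicate 2 (1.16, adjusted p = 0.0613). Fam208a came to 0.26 (adjusted p = 0.173) with GC content and length removed, and Pphln1 missed the threshold without KO clone 2 replicate 1 (0.49, adjusted p = 0.0553).

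Among the falls, Kmt5c, a methyltransferase gene for lysine 20 of histone H4, had 9.03 and 9.10 CPM in KO clone 1 and 11.3 and 9.44 CPM in KO clone 2, against 18.2 and 15.8 CPM in WT (−0.78 ± 0.16, adjusted p = 0.00224). Kmt5b, a methyltransferase gene for the same lysine, was instead called higher, at 0.61 ± 0.19 (edgeR adjusted p = 0.0255). That call held in 17 of 21 alternatives. Kdm4b and Kdm4a, demethylase genes for the H3K9 mark, were at −0.63 ± 0.12 (adjusted p = 0.00107) and −0.57 ± 0.11 (adjusted p = 0.00126). Kdm4c of the same family was not called (0.10 ± 0.19, adjusted p = 0.734). Morc2a, a HUSH-associated ATPase gene, was at −0.43 ± 0.11 (adjusted p = 0.00926), a call lost without KO clone 2 replicate 2 (−0.38, adjusted p = 0.0551). With the local median removed, Kmt5c (−0.38, adjusted p = 0.107) and Kdm4a (−0.18, adjusted p = 0.259) were not called, whereas Kdm4b was (−0.48, adjusted p = 0.00957). In all, 17 tested genes of the list were not called. Besides Kdm4c they include the HELLS partner gene Cdca7 and the maintenance methylation genes Uhrf1 and Dnmt1.

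HELLS is known as a protein of proliferating cells, and 8 replication genes were set beside its gene. Of Mcm2 to Mcm7, Pcna and Rrm2, 2 were called higher in the mean, against 16.6% of all genes tested, and the other 6 were not called. Their log2 fold changes ran from −0.24 to 0.48. The called genes were Pcna at 0.43 ± 0.11 (adjusted p = 0.00995) and Rrm2 at 0.48 ± 0.12 (adjusted p = 0.00712). Pcna was at 0.07 (adjusted p = 0.650) with GC content and length removed, and its call was lost without KO clone 2 replicate 1 (0.39, adjusted p = 0.0611). Rrm2 was at 0.22 (adjusted p = 0.198) with the local median removed, and without WT replicate 2 it missed the threshold (0.33, adjusted p = 0.0771). In KO clone 1 alone, Pcna (0.56, adjusted p = 0.00466) and Rrm2 (0.72, adjusted p = 0.00125) were called higher and Mcm2 lower (−0.40, adjusted p = 0.0338). In KO clone 2 none of the 8 was called by edgeR, with Pcna at 0.30 (adjusted p = 0.100) and Rrm2 at 0.23 (adjusted p = 0.220). The part of proliferation in the result for Hells was not tested.

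Over the 6 libraries, the genes whose log2 CPM followed that of Hells most closely, out of 8820 protein-coding genes averaging a log2 CPM of 3 or more, were the mitotic spindle gene Aspm (Pearson r = 0.9992), Mindy2 (0.9971) and Zfp148 (0.9964). These 6 points fall into knockout and WT libraries and share their depth and GC trend, so the values rank genes and carry no test. The log2 fold change in the mean of both clones was 0.99 for Aspm, 0.95 for Mindy2 and 0.61 for Zfp148, against 1.19 for Hells.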

How the data were processed

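Total RNA of KO clone 1, KO clone 2 and WT NIH/3T3 cells was sequenced from strand-specific libraries after removal of ribosomal RNA, per the labels' protocols, with 2 libraries per group. Per the submitters' processing notes, FastQC and STAR 2.6.0c were used, with GRCm38 as the build. Deposited were unnormalised read counts by Ensembl identifier, in columns for either strand and for each strand. Which annotation release was counted is not given in the sources. Reverse-strand counts were used, as the kit marks strand in that way, and the opposite strand held 4.68% to 6.10% of the counts on both strands. Rows naming no gene held 46.6% to 50.5% of reads and entered neither library sizes nor tests. They include multimapping reads, so genes with near-identical copies are measured by their unique parts.

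Symbols, loci, exonic lengths and GC content came from GENCODE M21, which matched 54079 of 54146 identifiers. In edgeR 4.0.16 (R 4.3.3), filterByExpr was run at a minimum count of 10 and TMM gave factors of 0.951 to 1.03. One quasi-likelihood fit of all 6 libraries had a coefficient for each group and 3 residual degrees of freedom before moderation, and 4 contrasts were tested with Benjamini-Hochberg adjustment over 13120 genes. The steps were tested on simulated counts. Alternatives used DESeq2 1.42.0, limma 3.58.1 with voom, smooth GC and length trends (mgcv 1.9.3), running medians over 51 neighbouring genes, other filters, scalings, strands and depths, a replicate block, and fits without 1 library.

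Named were all 10 members, Mki67, up to 4 called rises and 4 called falls of the heterochromatin list, up to 2 replication genes in each direction, and the 3 genes most like the member with the largest fold change. Other names were chosen after their values were seen. The members and lists were chosen with earlier results of these data known. Sampling noise did not account for the spread within groups (chi-square per degree of freedom 19.0 in KO clone 1, 21.3 in KO clone 2 and 12.1 in WT). Adnp, a list member, was not tested for lack of counts.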

Additional observations from a re-analysis of the deposited data

Results flagged for a closer look

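The reads on the strand opposite to Atrx in KO clone 1 were picked out for 2 reasons. This strand enters only the alternative on unstranded counts and not the comparisons as reported, and its share in KO clone 1 lay above that in WT. The libraries of KO clone 1 held 278 such counts together, and its shares of 19.6% and 14.4% lay above those of KO clone 2 (0.20% and 0.388%) and WT (0 counts and 0.455%). The libraries of WT are shallower over Atrx, with 62 and 220 counts on both strands. By strand-specific counts, Atrx was not called between the clones, at a log2 difference of 0.08 ± 0.20 in KO clone 2 over KO clone 1 (edgeR adjusted p = 0.904). The origin of these reads was not tested.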

How the results depend on the processing

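The calls of Hells, Atrx and Cbx5 in the mean of both clones held in all 21 alternatives, at log2 fold changes of 0.46 to 1.40, 0.55 to 1.23 and 0.44 to 1.30. Those of Suv39h2 and Trim28 were lost only with chromosome position removed. Members called with position removed numbered 3 in the mean, 2 in KO clone 1 and 3 in KO clone 2. Of all 13120 genes tested, 3215, 2876 and 2439 were called in these comparisons. An alternative added after seeing the data removed GC content, length and position. Members called then numbered 3 in KO clone 1 and 2 in KO clone 2, against 3220 and 2743 of all genes tested. The heterochromatin list held 7 calls and Pcna turned to −0.034 (edgeR adjusted p = 0.859). Between the clones, 1 member (Cbx3) was called instead of 0 with the replicate block, with GC content and length removed (with and without the block), without a low-count filter and with crossed replicate numbers, also added after seeing the data. Cbx3 in KO clone 1 was not called by DESeq2 (adjusted p = 0.0737), nor was Cbx1 in KO clone 2 by DESeq2 (0.0597) or limma-voom (0.0536). All genes called between the clones numbered 465 as reported, against 813 without a filter, 931 with GC content and length removed, 935 with the replicate block and that correction, 217 with libraries thinned to equal depth and 1178 with crossed numbers. Fits without 1 library gave 5 to 6 members in the mean, 5 to 6 in KO clone 1, 2 to 6 in KO clone 2 (2 without its replicate 1) and 0 to 1 between clones. Over all genes they gave 3359 to 4449, 2205 to 4348, 1668 to 4010 and 156 to 1207 calls, and 8 to 12 on the heterochromatin list. In such fits the lone library of a group was assumed to vary like the others. Whether replicate numbers pair the libraries is not in the labels. Correlations of replicate differences were −0.11 between the clones, and 0.27 for KO clone 1 and −0.09 for KO clone 2 with WT. With the replicate block, 4874 genes were called in the mean, 4447 in KO clone 1, 3955 in KO clone 2 and 635 between clones. The block changed no other member's call. Among the members, depth limits Suv39h2 and Cbx3 most, with 22 and 37 counts in WT replicate 1. On the heterochromatin list, Mphosph8 and Smarca5 had 7 and 16 counts in that library.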
